A study of Mus musculus with 6 samples.

Results

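The interferon-stimulated genes described here are a list of 35 genes, taken by symbol from the deposited gene lists and followed through every cell class of the mouse brain cells sequenced. They are 35 of the 27514 gene identifiers listed for both preparations, and all of them were found in both, with *Ifi209* listed under the symbol *Pyhin1* in the hippocampal files and joined by its Ensembl identifier. A subset of 18 antiviral genes, among them *Isg15*, *Irf7*, *Usp18*, *Rsad2*, the *Ifit*, *Oas* and *Mx* genes, is called the core members below. It was chosen with earlier results of these data known. Prep 1 held cells of the cerebral cortex of female wild-type C57Bl/6J mice aged 3 weeks, and prep 3 held cells of the hippocampus of female wild-type C57Bl/6J mice aged 5 weeks, with no treatment given for either. In each, the cells of 3 mice were pooled into 1 suspension, prepared without cell sorting by a protocol meant to favour microglia and vascular cells, and loaded in 3 technical replicates for 10x Genomics droplet sequencing, which gives every cell a barcode and every captured RNA molecule a unique molecular identifier (UMI). Region, age, preparation and gene annotation changed together and cannot be told apart, and with 1 biological sample per preparation no test was made and no p-value is given.

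Interferons are secreted when a cell senses foreign nucleic acid. Type I interferons bind a receptor made of *Ifnar1* and *Ifnar2*, whose kinases phosphorylate *Stat2*, which enters the nucleus in a complex with *Irf9* and binds a short DNA element near the start of the responding genes. The products of those genes sense viral RNA and DNA, trap or degrade it, block the entry and release of viruses, and switch the signal off again. In the healthy brain a low, tonic level of this program is known in endothelial cells, and microglia with a strong interferon signature are known as a rare state that becomes more common with age, infection and neurodegeneration.

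Levels are given as CPM, the UMIs of a gene summed over the cells of a class per 1000000 UMIs of all identifiers that both preparations list. UMIs count captured RNA ends and were not divided by gene length. The spread is the SD over the 3 technical replicates, and intervals are exact 95% intervals that cover counting error only, so neither contains the spread between animals. Library totals ranged from 39662203 to 50024850 UMIs, and 27530 of the 33273 deposited barcodes were kept as cells, 13320 cortical and 14210 hippocampal, with library medians of 5800 to 6914 UMIs per cell. Classes were named from marker genes, so that each name stands for cells that resemble that type, and the 35 genes were left out of the clustering. Cells with called doublets were kept. Barcodes that recurred in another library of the same preparation marked 61 cortical and 687 hippocampal cells, and 511 of these lay among the 826 choroid plexus epithelial cells and 78 among the 117 neutrophils, whose medians were 875 and 588 UMIs. The cortical erythroid class carried the RNA of 12 endothelial markers at a median of 22.6% of their endothelial level, and the cortical neuron class at 14.5%, so their member levels are named only where they were the highest of all classes. Several members can share reads with a neighbour or relative: 32.4% of the 60-base words in the last 300 bases of *Ifi209* transcripts also occur in *Ifi214*, 28.1% of those of *Trim30a* in *Trim30d*, and 24.6% of those of *Phf11d* in other genes, whereas *Ifit1*, *Ifit2*, *Ifit3* and *Isg15* share none. Exons of *Irf9*, *Herc6*, *Rtp4* and *Parp14* overlap another gene on the same strand (GENCODE M21, GRCm38), and these values are uncertain to that extent.

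The 35 genes lie on 14 chromosomes, and several sit side by side. *Ifit2*, *Ifit3* and *Ifit1* span chromosome 19 from 34550694 to 34650009 (GRCm38), and *Ifi209* and *Ifi204* lie within 136 kb on chromosome 1. *Rsad2* and *Cmpk2* lie head to head on chromosome 12. *Rsad2* starts at 26456452 on the minus strand and *Cmpk2* at 26469204 on the plus strand. The element bound by the complex of *Stat2* and *Irf9* was searched as GAAANNGAAA on both strands, from 250 bases before to 50 bases after the RefSeq starts (GRCm38.p6). A promoter was listed for 27 of the 35 genes. It held the element in 13 of these 27 genes (48.1%), against 3.99% of 27025 genes with a promoter in the same table. A match is a stretch of letters, not a measured binding site, and these windows were not tested for binding.

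Stretches around the matches are shown 5′ to 3′ on the gene's strand for some of the genes whose window holds a match, to show the element itself. The windows of *Ifitm3*, *Ifih1*, *Ddx58*, *Stat2*, *Oas1a*, *Trim30a* and *Phf11b* also hold a match and are not shown. No match was found in the windows of *Irf7*, *Irf9*, *Herc6*, *Ifit2*, *Oasl2*, *Cmpk2*, *Isg20*, *Xaf1*, *Ifi209*, *Phf11d*, *Slfn2*, *Ifi44*, *Ifi35* and *Lgals3bp*. The bases in capitals are the matched elements, of which *Isg15* holds 3 overlapping copies, *Bst2* 2 overlapping copies, and *Ifit1* and *Ifit3* 2 separate ones each.
Isg15 (chr4:156200855-156200916, minus strand): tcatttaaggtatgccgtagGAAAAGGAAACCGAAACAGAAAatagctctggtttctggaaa
Ifit1 (chr19:34640765-34640833, plus strand): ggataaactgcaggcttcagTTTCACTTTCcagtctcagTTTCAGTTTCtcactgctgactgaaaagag
Ifit3 (chr19:34583353-34583436, plus strand): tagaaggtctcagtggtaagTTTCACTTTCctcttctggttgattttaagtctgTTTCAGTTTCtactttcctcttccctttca
Rsad2 (chr12:26456543-26456592, minus strand): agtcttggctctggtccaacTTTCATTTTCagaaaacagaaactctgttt
Bst2 (chr8:71537567-71537622, minus strand): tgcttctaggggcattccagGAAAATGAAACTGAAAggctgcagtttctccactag
Slfn5 (chr11:82951927-82951976, plus strand): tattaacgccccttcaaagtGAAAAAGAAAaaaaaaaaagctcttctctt

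*Slfn5*, whose levels ran opposite to those of most members between cortical and hippocampal endothelium, carries a match as well.

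Endothelial cells and border myeloid cells carried the highest summed levels of the 35 genes, and neural cells the lowest. The sum stood at 3029.8, 3311 and 3211 CPM in the 3 cortical libraries for endothelial cells and at 4839.9, 4688 and 4743 CPM in the hippocampal ones. Microglia, the largest class in both preparations, held 813 ± 42.9 CPM (SD, n = 3 technical replicates) in the cortex and 851 ± 31.7 CPM in the hippocampus. Macrophages stood near endothelial cells, at 4048 ± 919 and 4547 ± 242 CPM, on 85 and 146 cells. The 58 cortical monocytes held 7404 ± 629 CPM, of which *Ifitm3* alone made 3505 CPM. Pericytes held 1382 CPM in the cortex and 1251 CPM in the hippocampus, vascular smooth muscle cells (VSMCs) 1267 and 911 CPM, and fibroblasts 1332 and 1722 CPM. The mural classes thus lay above microglia and below endothelium, except for hippocampal VSMCs, whose libraries (930.0, 908 and 892 CPM) lay close to those of microglia (854, 879 and 816 CPM). Astrocytes held 213 and 251 CPM, oligodendrocytes 64.8 and 115 CPM, and, in the hippocampus, oligodendrocyte precursor cells (OPCs) 134 CPM and neurons 279.8 CPM. Without cells whose own markers point to another class, the hippocampal neuron sum was 70.9 CPM on 429 cells and the OPC sum 126 CPM on 173 cells. Ependymal cells, sampled in the hippocampus alone, held 2594 ± 151 CPM, most of it *Ifitm3*.

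**Figure D1:**
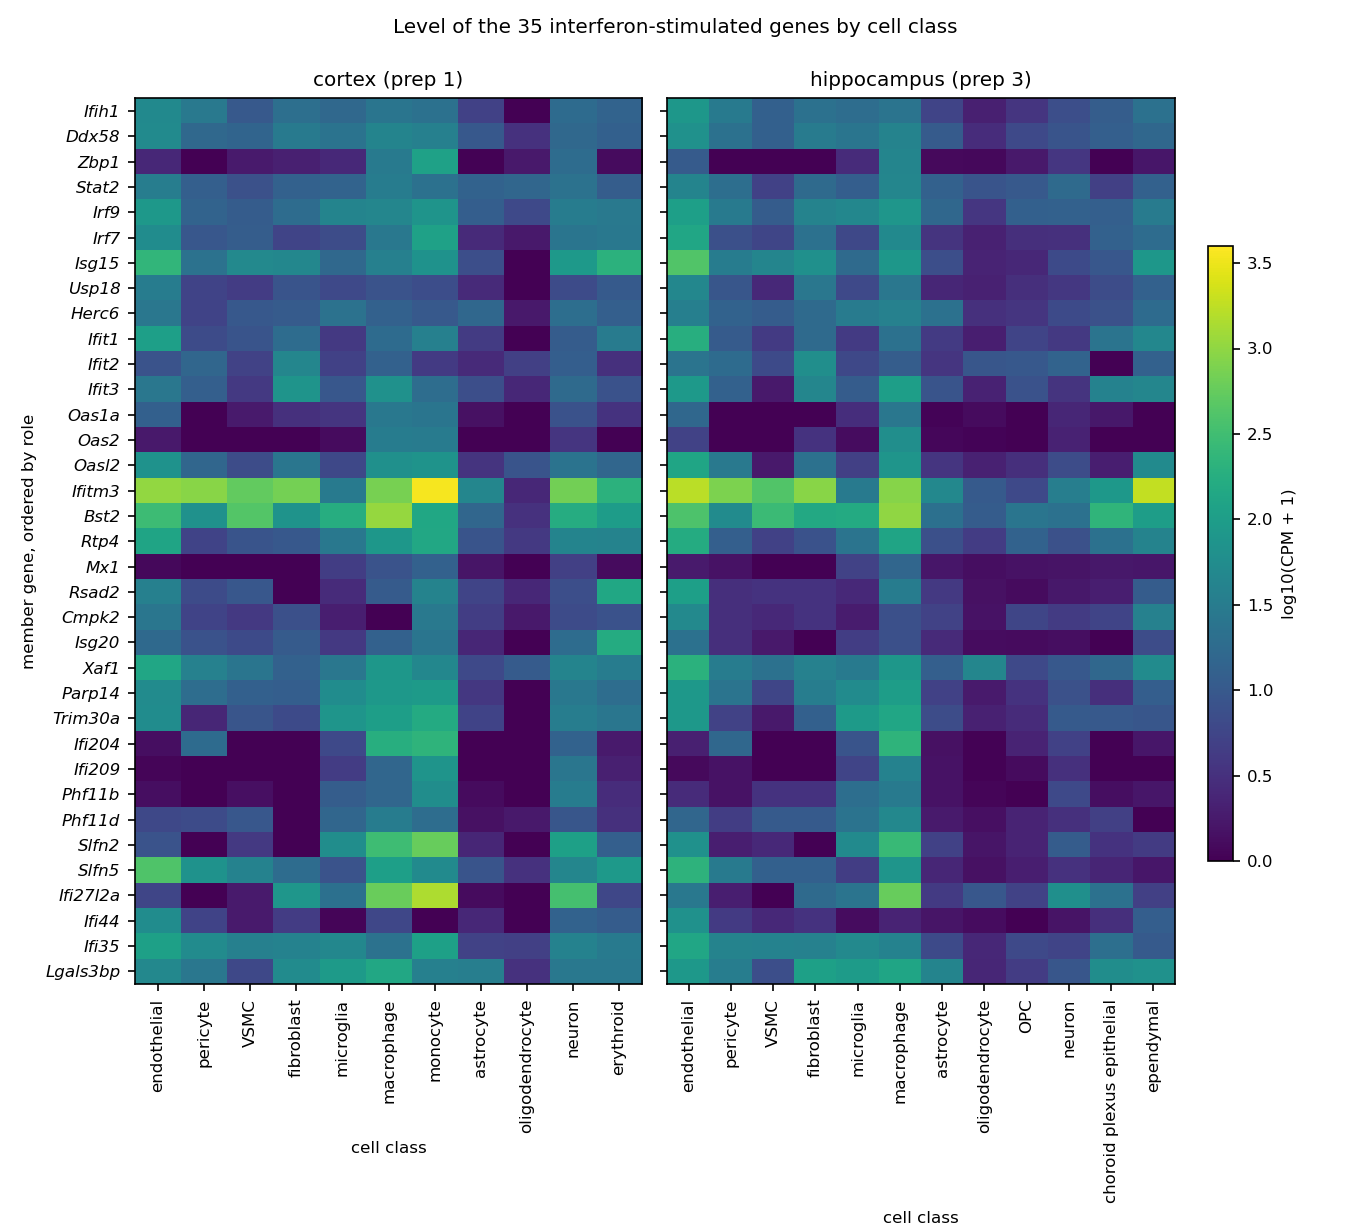
Heat map of the 35 genes (rows, by role) in the cell classes of prep 1 (cortex) and prep 3 (hippocampus) with at least 50 cells, without neutrophils. The colour, from dark blue (low) to yellow (high), is log10(CPM + 1) over all cells of a class in the 3 libraries. The Ifitm3 row is bright in endothelial, mural, myeloid and ependymal columns, Isg15 and Ifit1 are brighter in endothelial cells than in microglia, and the oligodendrocyte columns stay dark.

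Without *Ifitm3*, *Bst2* and *Ifi27l2a*, which many resting cells express, the endothelial sums were 1861 and 2653 CPM and the microglial sums 591 and 642 CPM, so the order of these 2 classes stayed. Over the core members alone the contrast was wider, at 870.3, 950.1 and 931 CPM in the cortical and 1661, 1619 and 1599 CPM in the hippocampal endothelial libraries, against 109, 120.4 and 127 CPM and 127, 137 and 108 CPM in microglia. The core leaves out *Bst2*, *Lgals3bp*, *Trim30a*, *Slfn2*, *Parp14*, *Ifi35* and *Irf9*, the members highest in microglia. *Ifitm3* and *Slfn5*, high in endothelium, are left out too. The width of this contrast depends on that choice and is no separate support. With endothelium taken as a whole, 12 of the 35 genes had their highest level in endothelial cells in the cortex. In the hippocampus 15 did, with 10 in common. A myeloid class was highest for 19 and 18 genes. In the cortex, 14 of the 19 peaked in the 58 monocytes and 5 in macrophages. In the hippocampus, where no cluster was named monocytes, 14 of the 18 peaked in macrophages and 4 in the shallow neutrophil class. A hippocampal cluster of 76 cells tied between monocyte markers and T and NK cell markers (6 each), stayed unnamed and was not ranked. It held *Ifi27l2a* at 904 CPM and *Slfn2* at 372 CPM, against 588 and 263 CPM in macrophages. *Ifit2*, and in the cortex *Ifit3*, were highest in fibroblasts, and *Ifitm3* in hippocampal ependymal cells. *Rsad2* and *Isg20* were highest in the cortical erythroid class. For some of these ranks the leading class and another did not differ beyond their spread. *Stat2* stood at 32.8 ± 1.51 CPM in cortical endothelium and 31.5 ± 10.4 CPM in macrophages, and *Irf9* at 81.4 ± 3.03 CPM in endothelium and 73.2 ± 33.7 CPM in monocytes.

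More of the list was called higher in endothelial cells than in microglia. A gene is called here when its CPM differed 2-fold or more between 2 sets of cells, with at least 20 UMIs over both. In the cortex 21 of the 35 genes were called higher in endothelial cells, where 25.1% of all 13666 genes tested were, and 7 higher in microglia, where 21.8% of all genes were. In the hippocampus 24 were called higher in endothelial cells (24.8% of all genes) and 4 in microglia (21.2%). The counts on the microglial side were no larger than the shares of all genes give. The median log2 ratio of endothelial cells to microglia was 1.33 over the 35 genes in the cortex, against 0.11 over all genes, and 2.20 against 0.14 in the hippocampus. Most genes of the sensing, signalling, ISG15, IFIT and oligoadenylate groups lay on the endothelial side, with log2 ratios in the cortex of 5.16 for *Ifit1*, 3.89 for *Isg15*, 3.74 for *Oasl2* and 3.24 for *Irf7*. On the microglial side in both preparations lay *Ifi204* and *Ifi209*, which encode DNA-binding PYHIN proteins, *Phf11b*, and *Mx1*, a dynamin-like GTPase. *Mx1* counted 5 and 13 UMIs in all endothelial cells against 122 and 167 in microglia. Microglial markers were also counted in the endothelial cells. The summed level of 10 such markers was 4216 CPM in cortical endothelium (libraries 4040 to 4322). It was 3872 CPM in hippocampal endothelium (3689 to 4109.6), with no marker at 0 in either. Whether these UMIs came from microglia or from the endothelial cells themselves was not tested. In microglia the 12 endothelial markers summed to 69.1 CPM (66.1 to 73.1) and 74.8 CPM (69.1 to 82.2), with none at 0, and their part in the members' levels was not tested. The median microglial level of those 12 markers was 0.198% of the endothelial level in the cortex (0.129% to 5.00%). There *Isg15* stood at 6.75% of its endothelial level, above that range, and *Ifitm3* at 2.89%, within it. In the hippocampus the markers ranged from 0.132% to 5.41%, and *Isg15* at 4.08% and *Ifitm3* at 1.66% lay within. Of the members compared, 23 of 29 in the cortex and 21 of 30 in the hippocampus lay above the highest marker.

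In endothelial cells the list shifted upward from the cortex to the hippocampus. With 33 of the 35 genes at 20 UMIs or more, 11 were called higher in the hippocampus, where 6.84% of all 12878 genes tested were, and 0 higher in the cortex, where 3.14% of all genes were. The log2 ratio was above 0 for 32 of the 33, against 69.1% of all genes, and its median was 0.72 over the list against 0.16 over all genes. All 3 hippocampal libraries lay above all 3 cortical ones for 28 of the 33 genes, a pattern seen in 37.1% of all genes, and below them for *Slfn5* alone. *Mx1* and *Ifi209* had too few endothelial UMIs to be compared. In these bulk-like sums, more RNA per cell and more cells with the RNA cannot be told apart, and shares of cells are given further on.

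Among the sensors, *Ifih1*, which encodes MDA5, a sensor of long double-stranded RNA, stood at 46.1, 52.4 and 50 CPM in the cortical endothelial libraries and at 83.0, 77.4 and 76.6 CPM in the hippocampal ones, a log2 ratio of 0.68 (95% counting interval 0.56 to 0.79). *Ddx58*, which encodes the RNA sensor RIG-I, stood at 53.0, 54.0 and 47.4 against 66.3, 66.6 and 60.3 CPM, a log2 ratio of 0.32. *Zbp1*, a sensor of Z-form nucleic acid that can trigger necroptosis, was rare in cortical endothelium at 1.23, 1.65 and 1.70 CPM (36 UMIs) and reached 9.39, 9.65 and 10.4 CPM in the hippocampus, a log2 ratio of 2.69 (95% counting interval 2.16 to 3.25). The sets of 3 libraries did not overlap for any of the sensors, and *Zbp1* moved most.

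Of the factors that carry the signal to DNA, *Stat2* (31.4, 34.4 and 32.7 CPM against 40.2, 38.1 and 45.2 CPM) and *Irf9* (79.8, 84.9 and 79.5 CPM against 111, 103 and 109 CPM) were present in both preparations, with log2 ratios of 0.32 and 0.40. *Irf7*, which drives type I interferon genes and is itself induced, stood at 53.2, 59.0 and 54.7 CPM in the cortex and at 133, 141 and 134 CPM in the hippocampus, a log2 ratio of 1.29 (95% counting interval 1.19 to 1.39). *Irf7* was thus past 2-fold, and *Stat2* and *Irf9* were not. *Isg15*, a ubiquitin-like modifier, stood at 208, 230.0 and 253 CPM in the cortex and 432, 430.5 and 374 CPM in the hippocampus, a log2 ratio of 0.84 (95% counting interval 0.79 to 0.90). *Usp18*, which removes ISG15 from proteins and silences the receptor, stood at 31.2, 31.3 and 31.4 against 43.0, 47.7 and 44.6 CPM, and *Herc6*, the mouse ligase for ISG15, at 23.8, 25.7 and 27.2 against 37.0, 33.7 and 34.4 CPM. All 3 genes of the ISG15 pathway lay higher in each hippocampal library than in any cortical library, by less than 2-fold.

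The IFIT proteins bind viral RNA and block its translation, and their 3 genes differed in size of shift though they are neighbours on chromosome 19. *Ifit1* stood at 102, 109 and 109 CPM in the cortical libraries and 185, 173 and 186 CPM in the hippocampal libraries, a log2 ratio of 0.77. *Ifit3* stood at 23.6, 29.6 and 25.1 CPM and 94.1, 83.8 and 88.8 CPM, a log2 ratio of 1.77 (95% counting interval 1.63 to 1.91). *Ifit2* stood at 8.03, 8.12 and 5.50 CPM and 23.5, 22.2 and 23.6 CPM, a log2 ratio of 1.67 (95% counting interval 1.41 to 1.94). The intervals of *Ifit2* and *Ifit3* lay above that of *Ifit1*, 0.69 to 0.85. The oligoadenylate synthetases make a messenger that activates RNase L. *Oas1a* stood at 12.7, 13.7 and 8.90 against 17.1, 13.3 and 14.3 CPM with overlapping libraries, *Oas2* at 0.988, 1.01 and 0.262 against 3.00, 5.28 and 3.93 CPM on 18 and 65 UMIs, and *Oasl2*, a relative, at 71.9, 66.1 and 62.6 against 137, 127 and 122 CPM, with log2 ratios of 0.34, 2.42 and 0.95. *Oas2* was called, *Oasl2* fell just short of 2-fold, and *Oas1a* did not separate.

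Membrane proteins that restrict viruses made the largest group within the endothelial sum. *Ifitm3*, which blocks the fusion of viruses with endosomes, stood at 945, 1084 and 1048 CPM in the cortex and 1718, 1643 and 1694 CPM in the hippocampus, a log2 ratio of 0.72 (95% counting interval 0.69 to 0.74). *Bst2*, or tetherin, which holds budding viruses at the cell surface, stood at 268, 306 and 305 against 392, 391 and 394 CPM, and *Rtp4*, a receptor-transporting protein induced by interferon, at 119.8, 133 and 127 against 167, 164 and 162 CPM. None of these was past 2-fold, and none of their library values overlapped between the preparations. *Rsad2*, which encodes viperin, an enzyme that makes a chain-terminating nucleotide, stood at 33.3, 40.8 and 33.9 against 109.8, 96.0 and 115 CPM, a log2 ratio of 1.57 (95% counting interval 1.45 to 1.69). Its neighbour *Cmpk2*, a nucleotide kinase, stood at 22.2, 24.6 and 27.0 against 50.1, 45.0 and 48.9 CPM, a log2 ratio of 0.97. The remaining effectors, *Xaf1*, *Parp14*, *Trim30a* and the exonuclease gene *Isg20*, had log2 ratios of 0.54, 0.63, 0.57 and 0.42, all with separate libraries.

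The Schlafen genes went opposite ways. *Slfn2*, known for keeping T cells quiescent, stood at 6.67, 7.36 and 7.99 CPM in the cortical endothelial libraries and 67.4, 65.0 and 65.8 CPM in the hippocampal ones, a log2 ratio of 3.17 (95% counting interval 2.94 to 3.41), the largest of the 33. *Slfn5*, a nuclear Schlafen protein, stood at 415, 414 and 393 CPM and 216, 213 and 209.9 CPM, a log2 ratio of -0.94 (95% counting interval -0.99 to -0.88), the single negative value of the list. Reads of *Slfn5* and of *Slfn5os*, which overlaps its exons on the opposite strand, are told apart only by strand. *Ifi27l2a*, a small mitochondrial protein gene, stood at 3.70, 7.48 and 2.75 against 20.5, 22.8 and 36.5 CPM, a log2 ratio of 2.50, on 110 and 420 UMIs. *Phf11d*, a zinc finger gene, stood at 4.69, 4.95 and 5.50 against 16.1, 13.5 and 14.3 CPM, whereas its relative *Phf11b* (8 and 28 UMIs) and *Ifi204* (8 and 17 UMIs) were called on few UMIs and with libraries that overlapped. *Lgals3bp*, a secreted glycoprotein, *Ifi35* and *Ifi44* had log2 ratios of 0.82, 0.27 and 0.19, and the libraries of *Ifi44* overlapped.

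**Figure D2:**
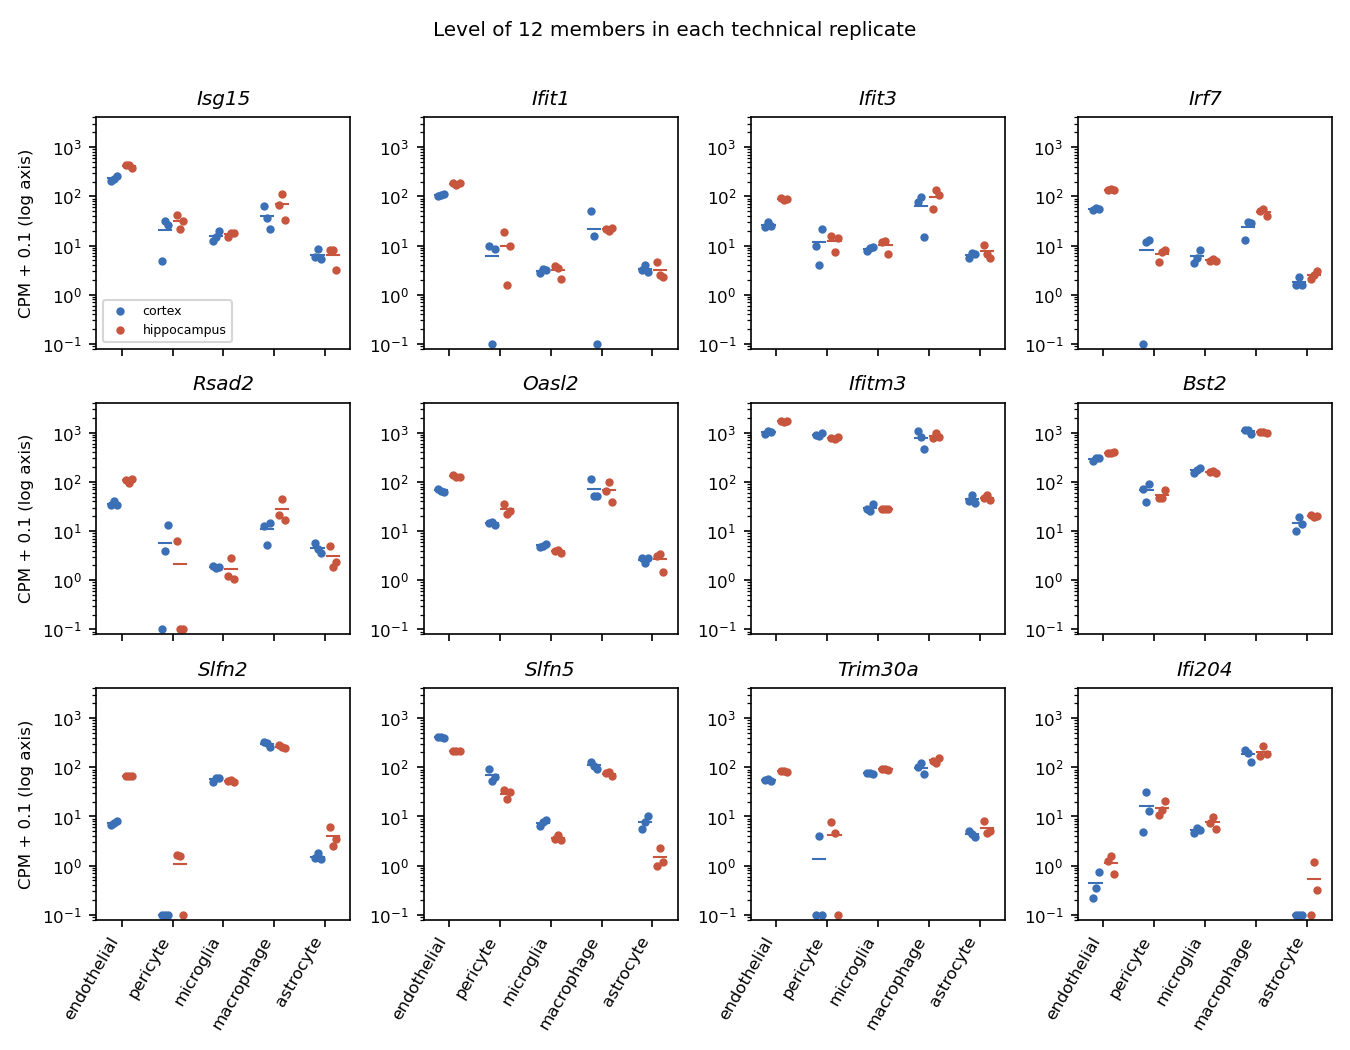
Level of 12 members in each technical replicate (points), in endothelial cells, pericytes, microglia, macrophages and astrocytes of the cortex and hippocampus. The vertical axis is CPM + 0.1 on a log scale, so a library without UMIs sits at 0.1. Hippocampal endothelial points lie above the cortical ones for all genes shown but Slfn5 and Ifi204, and in microglia the points of both preparations lie close together for most genes.

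Endothelial cells were sorted further by segment markers into arterial, capillary and venous cells and into cells that carried both arterial and capillary markers. Groups of 159, 53, 42 and 26 cortical and 81, 55 and 42 hippocampal cells, with leading genes of another cell type, got no segment. Neither did 178 shallow hippocampal cells and 19 without a clear segment. All of these stay in the values of endothelium as a whole. An *Apln*-positive group of 247 cells was found in the cortex, and its hippocampal counterpart held 12 cells and is not described. The summed level was highest in arterial cells, at 4055, 4447 and 4869.9 CPM in the cortical and 6987, 6504 and 6467 CPM in the hippocampal libraries, with no overlap with capillary cells (2910.0, 3061 and 3041 CPM and 4496, 4417 and 4311 CPM) or venous cells (3104, 3422 and 3225 CPM and 4740.1, 4692 and 4615 CPM). Cells with both kinds of markers held 3216 ± 292 and 4998 ± 213 CPM, and cortical *Apln*-positive cells, which mark angiogenic endothelium, held 2774 ± 52.6 CPM, the lowest segment sum of the cortex. Without *Ifitm3*, *Bst2* and *Ifi27l2a* the cortical sums were 2118 CPM in arterial, 2012 in capillary, 2021 in both-marker and 1837 in venous cells. The arterial excess of the cortex was thus much smaller without these genes. In the hippocampus the sums were 3399, 2670, 2780 and 2481 CPM in the same order of segments. Among the 4 segments, arterial cells were highest for 17 of 30 members with enough UMIs in the cortex and for 25 of 31 in the hippocampus. The same count was not made over all genes, so these ranks have no background to be read against. Arterial cells were also the smallest of the 4 segments, with 234 and 232 cells.

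Against capillary cells, 5 of 29 members tested were called higher in cortical arterial cells, where 6.05% of all genes were, and 0 were called higher in capillary cells, where 4.53% of all genes were. In the hippocampus the numbers were 5 of 31 (4.55% of all genes) and 0 (4.85%). *Ifitm3* and *Phf11d* were called in both preparations. *Ifitm3* stood at 1814, 1993 and 2187 CPM in cortical arterial cells against 673, 734 and 658 CPM in capillary and 983, 1154 and 1177 CPM in venous cells. In the hippocampus the same order held, with 2882, 2584 and 2761 CPM in arterial, 1337, 1336 and 1314 CPM in capillary and 1778, 1756 and 1804 CPM in venous cells. The order arterial, venous, capillary was thus free of overlap in both preparations for this gene. *Irf7* followed another order, with 93.9 ± 3.06 CPM in arterial, 54.5 ± 3.96 CPM in capillary and 40.9 ± 2.02 CPM in venous cells of the cortex, and 234 ± 23.5, 123 ± 20.1 and 88.3 ± 5.35 CPM in the hippocampus. *Rsad2* fell steeply towards the veins, from 68.4, 99.6 and 111 CPM in arterial cells over 39.8, 52.2 and 27.7 CPM in capillary cells to 18.7, 13.7 and 8.63 CPM in venous cells of the cortex. In the hippocampus *Rsad2* stood at 100.1, 127 and 161 CPM in arterial cells, with overlap, at 104, 75.5 and 87.2 CPM in capillary cells and at 54.0, 28.9 and 43.6 CPM in venous cells, and was highest in the cells with both kinds of markers, at 252, 228 and 259 CPM. The leading genes of that last group included the immediate early genes *Fos*, *Fosb* and *Nr4a1*, and its 7 monocyte markers summed to 53.5 CPM (32.1 to 86.8), with 5 of them at 0. The part of either in the *Rsad2* level was not tested.

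*Slfn5* ran against the arterial excess. It stood at 324 ± 4.39 CPM in arterial, 451 ± 16.9 CPM in capillary and 469.5 ± 22.1 CPM in venous cells of the cortex and at 170.4 ± 12.9, 227 ± 7.43 and 241 ± 17.4 CPM in the hippocampus, lowest in arteries in both. *Isg15* differed little by segment in the cortex, with 241, 232 and 369 CPM in arterial and 226, 237 and 306 CPM in capillary cells, whose libraries overlapped, and stood at 665, 667 and 448 against 435, 423 and 392 CPM in the hippocampus. *Ifit1* had its arterial and capillary libraries intermingled in the cortex (105, 86.7 and 150.1 against 126, 129.9 and 129 CPM) and apart in the hippocampus (246, 236 and 228 against 201, 191 and 196 CPM). Erythroid marker RNA varied widely between libraries of arterial cells. It ranged from 126 to 10333 CPM in the cortex and from 10.8 to 14359 CPM in the hippocampus. The part of erythroid RNA in the arterial member levels was not tested.

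The rise from cortex to hippocampus was found in every segment. In capillary cells 9 of 30 members were called higher in the hippocampus (3.72% of all genes), in arterial cells 11 of 31 (3.2%), in cells with both kinds of markers 10 of 30 (5.69%) and in venous cells 10 of 30 (3.49%). *Zbp1*, *Irf7*, *Ifit2*, *Ifit3*, *Phf11d* and *Slfn2* were called in all 4. The share of all genes called in all 4 was not counted, so this number has no background. *Zbp1* rested on 2 cortical UMIs in capillary, 5 in arterial, 7 in venous and 9 in mixed-marker cells. Its interval in the last (-0.19 to 2.35) included 0. *Ifit3* stood at 27.1, 31.5 and 34.6 CPM in cortical and 88.3, 89.0 and 75.5 CPM in hippocampal capillary cells, at 26.1, 36.1 and 26.8 against 100.2, 84.4 and 97.6 CPM in venous cells, and at 18.4, 31.1 and 39.3 against 172, 157 and 105 CPM in arterial cells. The median log2 ratio of the members was 0.65 in capillary, 0.68 in arterial, 0.47 in mixed-marker and 0.66 in venous cells, against 0.14, 0.08, 0.08 and 0.11 over all genes. *Slfn5* lay lower in every hippocampal library than in any cortical library in each of these 4 segments.

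**Figure D3:**
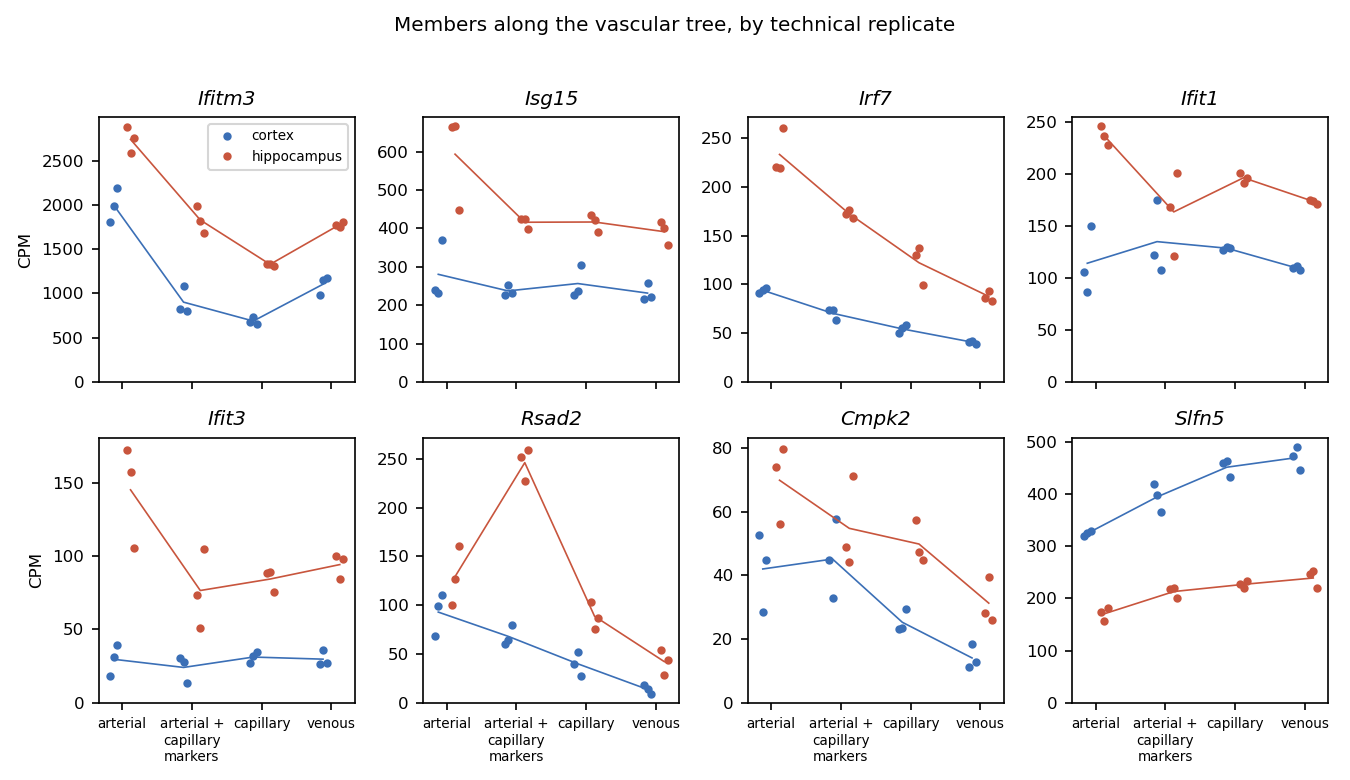
Level (CPM, vertical axis from 0) of 8 members in the endothelial segments of the cortex and hippocampus, with a point for each technical replicate and a line through the means of the 3. Ifitm3 has the highest points in arterial cells in both preparations, Rsad2 falls towards venous cells, and Slfn5 is lowest in arterial cells.

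Cell by cell, core members were detected in a larger share of endothelial cells than of microglia. To compare cells at equal depth, each was thinned to 1000 UMIs, and a cell was counted when it still held UMIs of at least 3 of the 18 core members. Cells with fewer UMIs were left out, 1 cortical and 89 hippocampal endothelial cells and 48 and 4 microglia. In cortical endothelium the share was 7.87%, 7.95% and 7.27% in the 3 libraries, or 7.70% (202 of 2625 cells, 6.70% to 8.78%) with its exact binomial interval, and in hippocampal endothelium 17.4%, 18.4% and 16.5%, or 17.4% (357 of 2047 cells, 15.8% to 19.2%). At least 1 core member was found in 52.0% and 65.2% of endothelial cells. The hippocampal share lay above the cortical one in every library. In arterial cells it was 11.1% (26 of 234 cells, 7.39% to 15.9%) in the cortex and 23.5% (54 of 230 cells, 18.2% to 29.5%) in the hippocampus, with 9.64%, 17.6% and 6.49% against 21.2%, 25.6% and 23.3% in the libraries. In venous cells it was 6.27% (37 of 590 cells, 4.45% to 8.54%) and 15.0% (51 of 341 cells, 11.3% to 19.2%), with 5.88%, 6.28% and 6.67% against 16.7%, 12.9% and 15.5%. The libraries did not overlap in either segment, but they are technical runs of 1 suspension for each preparation. Without thinning the endothelial shares were 64.3% and 72.0%, at median depths of 7169 and 6581.5 UMIs. In microglia the thinned share was 0.674% (41 of 6081 cells, 0.484% to 0.914%) in the cortex and 0.447% (26 of 5818 cells, 0.292% to 0.654%) in the hippocampus, whose intervals overlap, and 3.93% and 4.43% without thinning. Hippocampal oligodendrocytes and neurons, which carry little of this program, gave 0.186% (2 of 1074 cells, 0.0226% to 0.671%) and 0.198% (1 of 506 cells, 0.00500% to 1.10%) at the same thinned depth, from median depths of 21238.5 and 10501 UMIs against 5461 and 6639.5 in microglia. The intervals of these classes and of microglia overlap, so the microglial share is not set apart from these hippocampal classes. Cortical astrocytes gave 0.157% (4 of 2552 cells, 0.0427% to 0.401%), below the interval of cortical microglia. Hippocampal astrocytes gave 0.271% (5 of 1847 cells, 0.0880% to 0.631%), which overlaps that of hippocampal microglia. At least 5 core members were held by 0.148% and 0.172% of microglia, 0.0392% and 0.108% of astrocytes, and 0% of those oligodendrocytes and neurons. Pericytes gave 0 of 401 cells in the hippocampus, which allows a share of up to 0.748%, and VSMCs 0 of 203 in the cortex, which allows up to 1.48%.

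A small number of microglia held much of the core members' RNA. Microglia were ranked by the summed level of the core members other than the gene in question, and the top 1% was taken (61 cortical and 58 hippocampal cells). These cells held at most 1.06% of all microglial UMIs, but a median of 35.1% of the UMIs of the 16 core members with at least 20 UMIs in the cortex (9.47% to 55.7%) and 36.1% in the hippocampus (8.51% to 68.2%). In endothelial cells the top 1% held a median of 2.87% of 14 core members in the cortex (0% to 17.0%) and 2.56% of 15 in the hippocampus (0.844% to 6.09%), with *Ifit2* and *Ifit3* highest in the cortex at 17.0% and 10.2%. In astrocytes the top 1% (27 and 20 cells) held a median of 42.5% of 12 core members in the cortex (1.61% to 65.5%) and 22.7% of 10 in the hippocampus (2.86% to 38.1%), so such gathering was not seen in microglia alone. Without called doublets the astrocyte sums of the 35 genes were 154 CPM in the cortex and 198 CPM in the hippocampus, against 213 and 251 CPM with them. The part of doublets in the astrocyte top cells was not tested. *Ifit3* stood at 496 CPM in the top microglia against 3.94 CPM in the rest of the cortex, and at 560.3 against 4.53 CPM in the hippocampus. *Isg15* stood at 485 against 11.2 CPM and at 522 against 11.5 CPM, and *Ifi204* at 265 against 2.81 CPM and at 284 against 4.63 CPM. These are levels of a gene in cells chosen by other genes of the same list, and they are a description of how the members occur together. *Xaf1* and *Rtp4* were the least gathered of the 16, with 9.47% and 13.8% of their cortical microglial UMIs in the top cells.

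Members outside the core varied in the same cells. *Slfn5* had 39.8% and 36.8% and *Ifitm3* 28.3% and 28.2% of their microglial UMIs in the top 1%, whereas *Irf9* had 2.12% and 2.80%, *Ifi35* 3.26% and 4.28%, and *Ddx58* 4.46% and 3.85%. The signalling factor *Irf9* and the sensor *Ddx58* were thus less gathered than *Slfn5* and *Ifitm3*, though their levels were higher in the top cells too. *Irf9* stood at 92.5 against 40.0 CPM in the rest of the cortex and at 119 against 44.1 CPM in the hippocampus. *Ddx58* stood at 108 against 21.7 CPM and at 88.7 against 23.6 CPM. With all core members ranked together, the 61 cortical cells came from all 3 libraries (17, 16 and 28), as did the 58 hippocampal cells (18, 24 and 16). Endothelial markers summed to 80.2 CPM in the top cortical cells against 69.0 CPM in the rest, and to 49.0 against 75.1 CPM in the hippocampus, and 2 and 3 of the top cells were called doublets. Monocyte markers summed to 188 against 118 CPM in the cortex and to 294 against 207 CPM in the hippocampus, and their part was not tested. In clusters of microglia formed without the 35 genes, the share with at least 3 core members ranged from 0.325% to 1.30% in the cortex and from 0.109% to 1.72% in the hippocampus, highest in a hippocampal cluster of 755 cells.

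**Figure D4:**
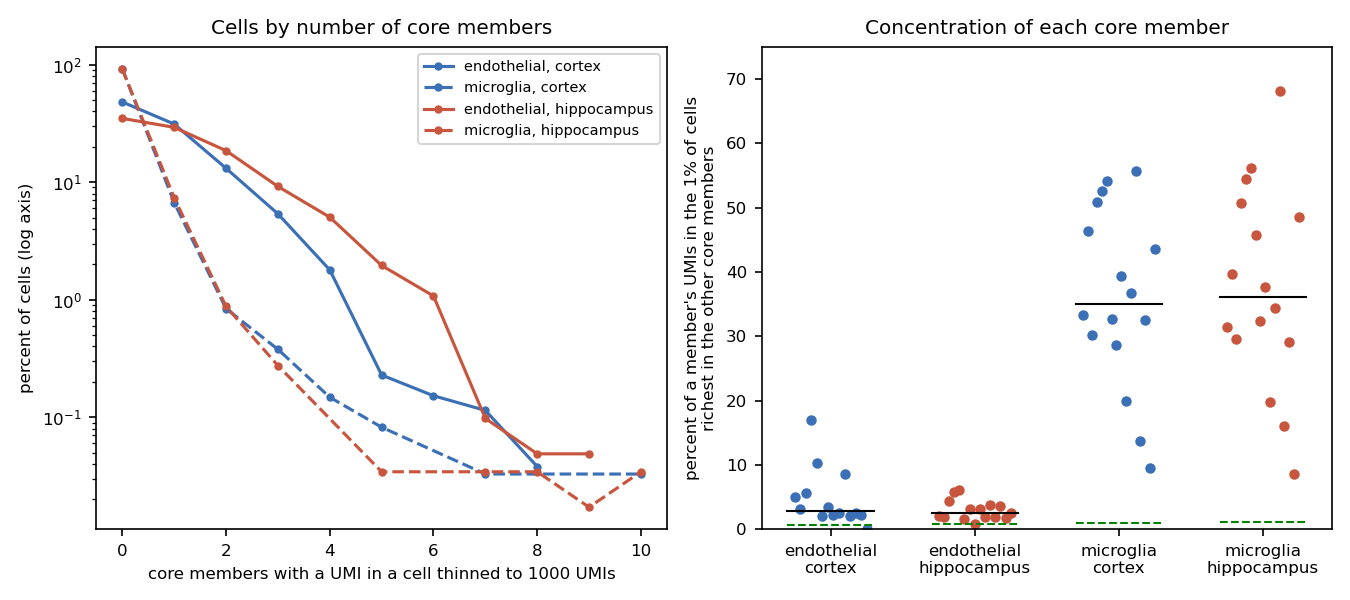
Left, percent of cells by the number of core members detected after thinning to 1000 UMIs, for endothelial cells and microglia of each preparation, on a log axis that leaves out numbers found in no cell. Right, percent of each core member's UMIs held by the 1% of cells richest in the other core members (points, core members with at least 20 UMIs; black line, median; green dashed line, share of all UMIs in those cells). Most microglia hold none, and their top 1% holds a median of 35.1% and 36.1% of the UMIs, against 2.87% and 2.56% in endothelial cells.

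At the level of all microglia the list did not shift between the preparations. Of 34 genes tested, 0 were called higher in the hippocampus (4.87% of all 13376 genes) and 1, *Slfn5*, higher in the cortex (2.7%), and the median log2 ratio was 0.11 over the list and 0.11 over all genes. *Bst2*, at 154, 170.3 and 191 CPM in the cortex and 156, 163 and 154 CPM in the hippocampus, *Lgals3bp*, at 91.3, 90.7 and 88.5 against 96.9, 99.0 and 86.3 CPM, and the E3 ligase gene *Trim30a*, at 75.8, 78.0 and 72.5 against 93.3, 91.2 and 87.0 CPM, were the members with the highest microglial levels. Next came *Slfn2* (57.1 ± 6.15 and 52.5 ± 2.74 CPM), *Parp14* (54.8 ± 2.77 and 54.1 ± 1.18 CPM), *Ifi35* (45.8 ± 2.01 and 47.8 ± 3.78 CPM) and *Irf9* (40.5 ± 3.14 and 44.9 ± 1.34 CPM). *Isg15* stood at 12.3, 15.1 and 19.2 CPM in the cortex and 14.8, 17.5 and 18.2 CPM in the hippocampus, and *Rsad2* and *Cmpk2* at under 2 CPM in both. Library values of most members overlapped between the preparations. They separated upward in the hippocampus for 7 genes, with *Phf11b* (8.40, 11.1 and 12.5 against 18.9, 18.7 and 19.1 CPM) showing the largest ratio, and downward for 4, *Stat2*, *Oasl2*, *Rtp4* and *Slfn5*. For all genes the shares of such separations were 34.7% and 14.1%. *Slfn5* stood at 6.39, 7.44 and 8.46 CPM in the cortex and 3.38, 4.01 and 3.20 CPM in the hippocampus, a log2 ratio of -1.07 (95% counting interval -1.37 to -0.77), and was no longer past 2-fold without the third cortical replicate.

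Macrophages of the brain borders, marked by *Mrc1* and *Pf4*, had high *Bst2*, *Ifitm3*, *Ifi27l2a* and *Slfn2* in both preparations. *Bst2* stood at 1147, 1139 and 919.7 CPM in the cortical libraries and 1044, 1019 and 973 CPM in the hippocampal ones, *Ifitm3* at 1071, 797 and 456 against 794, 974 and 822 CPM, and *Ifi27l2a* at 567, 689 and 463 against 594, 542 and 671 CPM. *Slfn2* stood at 328, 311 and 261 against 284, 257 and 246 CPM and *Ifi204*, which binds foreign DNA, at 227, 199 and 130.3 against 166, 274 and 184 CPM. The libraries of these 5 genes overlapped between the preparations, on 85 and 146 cells. *Oas2*, which stayed under 6 CPM in every library of endothelium and microglia, reached 25.2, 35.7 and 29.0 CPM and 59.4, 45.2 and 83.8 CPM. Of 30 genes tested, 6 were called higher in the hippocampus (9.55% of all genes) and 0 in the cortex (2.7%). They were *Isg15*, *Usp18*, *Herc6*, *Rsad2*, *Ifi209* and *Phf11b*, and the libraries were separate only for *Usp18* (0, 10.2 and 7.24 against 29.7, 19.8 and 33.5 CPM) and *Rsad2* (12.6, 5.11 and 14.5 against 21.2, 45.2 and 16.8 CPM). *Usp18* and *Rsad2* rested on 3 and 4 cortical UMIs and 20 and 24 hippocampal ones, and the interval of *Phf11b* (-0.29 to 2.63) included 0. *Isg15*, at 63.0, 35.7 and 21.7 against 67.9, 110.1 and 33.5 CPM, overlapped.

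Cortical monocytes also had high *Ifitm3*, *Ifi27l2a* and *Slfn2*, and less *Bst2*. They held *Ifitm3* at 3836, 3245 and 3446 CPM, *Ifi27l2a* at 1204, 1311 and 1820.2 CPM, *Slfn2* at 602, 488 and 665 CPM and *Bst2* at 135, 109 and 184 CPM. *Zbp1* (71.9, 101 and 174 CPM) and *Irf7* (135, 109 and 92.0 CPM) were also high in these cells, of which each library held 19, 23 and 16. Shares of cells with at least 3 core members were 10.3% (6 of 58 cells, 3.89% to 21.2%) in monocytes and 5.63% (4 of 71 cells, 1.56% to 13.8%) and 8.15% (11 of 135 cells, 4.14% to 14.1%) in macrophages, at intervals too wide to order them. In the hippocampal neutrophil class *Ifi27l2a* stood at 1724, 246 and 204 CPM, and without the barcodes shared between libraries 39 of its 117 cells remained.

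Among mural cells, the list rested mostly on *Ifitm3* and *Bst2* in VSMCs and mostly on *Ifitm3* in pericytes. Pericytes, the contractile cells of capillaries, held *Ifitm3* at 892, 867 and 978 CPM in the cortex and 783, 735 and 800.3 CPM in the hippocampus and *Bst2* at 72.3, 38.4 and 90.1 against 47.4, 47.1 and 66.7 CPM. VSMCs, which ring the arteries, held *Ifitm3* at 493, 581 and 554 against 413, 408 and 423 CPM and *Bst2* at 361, 472 and 461 against 282, 301 and 260.4 CPM. *Bst2* thus stood higher in VSMCs than in pericytes in every library of both preparations. The core members were low, with *Isg15* at 4.82, 30.7 and 25.7 against 41.3, 22.1 and 31.8 CPM in pericytes and 15.1, 34.8 and 90.3 against 41.3, 48.0 and 38.7 CPM in VSMCs. Endothelial markers stood in pericytes at a median of 4.52% of their endothelial level in the cortex and 2.53% in the hippocampus, with markers up to 36.6% and 33.4%, and *Isg15* at 9.31% and 7.65%, within that range. Of 19 members tested in pericytes, *Irf9*, *Herc6* and *Rtp4* were called higher in the hippocampus (7.35% of all genes) and *Slfn5* higher in the cortex (3.54%). The calls of *Herc6* and *Rtp4* rested on 3 cortical UMIs each and 25 and 22 hippocampal ones, their intervals included 0, and the libraries of *Rtp4* overlapped. *Slfn5* stood at 91.6, 53.7 and 64.4 against 33.7, 22.1 and 31.8 CPM. Of 19 tested in VSMCs, 0 were called higher in the hippocampus (2.57%) and 6 higher in the cortex (6.66%): *Slfn5* (36.5, 32.1 and 46.3 against 16.1, 4.36 and 15.5 CPM), *Irf7*, *Ifit1*, *Rsad2*, *Parp14* and *Trim30a*. The last 5 rested on 18 to 28 cortical and 1 to 6 hippocampal UMIs. Endothelial markers stood in VSMCs at a median of 3.48% of their endothelial level in the cortex and 1.72% in the hippocampus. In VSMCs, 25 of 29 members compared in the cortex and 16 of 30 in the hippocampus lay above the highest marker. The part of endothelial RNA in the VSMC calls was not tested. Fibroblasts (77 and 50 cells) held the highest *Ifit2*, at 26.6, 31.5 and 66.5 against 36.6, 73.1 and 53.2 CPM, and *Ifit3* at 126, 52.5 and 47.1 against 24.4, 61.9 and 35.4 CPM.

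Neural cells expressed little of the list. In astrocytes no member reached 100 CPM, and 6 members in the cortex and 7 in the hippocampus passed 10 CPM. *Ifitm3* stood at 39.9, 54.3 and 37.1 against 45.9, 53.8 and 43.1 CPM, *Lgals3bp* at 34.8, 34.0 and 32.4 against 43.7, 38.8 and 42 CPM, and *Herc6* at 15.6, 14.0 and 15.3 against 22.4, 21.4 and 18.2 CPM. Of 27 genes tested, 3 were called higher in the hippocampus (7.32% of all genes), *Xaf1* (4.69, 5.72 and 5.28 against 11.2, 10.4 and 12 CPM), *Slfn2* and *Ifi27l2a*, and 2 higher in the cortex (4.03%), *Slfn5* (5.36, 7.73 and 10.2 against 0.879, 2.21 and 1.11 CPM) and *Ifi44*. Of these, *Xaf1* alone passed a mean of 10 CPM in a preparation, and the number of calls in astrocytes changed with several alternatives. The same gene was the member with the highest level in hippocampal oligodendrocytes, at 43.7, 47.2 and 40.7 CPM, where all others but *Bst2* (10.2 CPM) stayed under 10 CPM. Endothelial marker RNA in hippocampal oligodendrocytes was at a median of 0.406% of its endothelial level and at most 1.52%. *Xaf1* stood at 43.8 CPM there and at 196 CPM in endothelium, and the part of endothelial RNA in its level was not tested. *Xaf1* encodes an inhibitor of the antiapoptotic protein XIAP. In hippocampal OPCs the highest members were *Bst2* (17.4, 9.23 and 49.0 CPM) and *Rtp4* (8.69, 14.5 and 13.3 CPM), and in neurons *Ifi27l2a* (67.7, 78.4 and 31.2 CPM). Without cells whose own markers point to another class, *Bst2* in OPCs stood at 8.64 CPM and the neuron sum of all members at 70.9 CPM.

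Ependymal cells, the ciliated lining of the ventricles, held the highest *Ifitm3* of the hippocampal classes with endothelium taken as a whole. Arterial endothelial cells held more, at 2742 CPM. In ependymal cells *Ifitm3* stood at 1963, 1797 and 1841 CPM in the 3 libraries, above whole endothelium (1718, 1643 and 1694 CPM) in each. Without the barcodes shared between libraries the ependymal level was 1882 CPM. *Isg15* stood at 66.2, 110.4 and 63.0 CPM, *Ifit1* at 59.6, 40.2 and 34.7 CPM, *Oasl2* at 44.7, 70.3 and 41.2 CPM and *Cmpk2* at 36.4, 44.2 and 30.4 CPM, so core members were present too. The 12 endothelial markers were at a median of 1.50% and at most 2.71% of their endothelial level in these cells, and 27 of 30 members compared lay above that range. After thinning, 2.27% (3 of 132 cells, 0.471% to 6.5%) of the ependymal cells held at least 3 core members, with 79 of the 211 cells left out for their depth. The choroid plexus epithelium, which makes the cerebrospinal fluid, had another profile, with *Bst2* at 158, 229.9 and 299.9 CPM and *Ifitm3* at 81.8, 97.6 and 67.8 CPM. *Ifit3* in this class stood at 5.11, 124 and 6.36 CPM and *Ifit1* at 4.26, 72.9 and 5.30 CPM, so that the second replicate alone set their means. Most choroid plexus barcodes were shared between libraries, and without them *Bst2* was at 233 CPM and *Ifit3* at 43.6 CPM.

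The values of the classes are given side by side. The median log2 ratio of the members was 0.72 in endothelium, 0.45 in macrophages, 0.34 in pericytes, 0.24 in astrocytes, 0.11 in microglia and -0.39 in VSMCs, against medians over all genes that lay between 0.0025 in VSMCs and 0.17 in macrophages. *Slfn5* was lower in the hippocampus in all 6 classes, with log2 ratios from -0.50 in macrophages, whose interval includes 0, to -2.46 in astrocytes. *Slfn2* and *Ifi27l2a*, higher in hippocampal endothelium by 3.17 and 2.50 on the log2 scale, had ratios of -0.18 and -0.01 in macrophages and -0.12 and 0.22 in microglia. Of the members tested in at least 4 classes, *Irf9*, *Herc6*, *Ifit2*, *Ifit3* and *Phf11d* had ratios above 0 in every class tested. So had *Zbp1*, *Oas2*, *Isg20*, *Phf11b*, *Ifi209* and *Mx1*, which were tested in fewer classes. Whether the shift differs between classes was not tested.

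**Figure D5:**
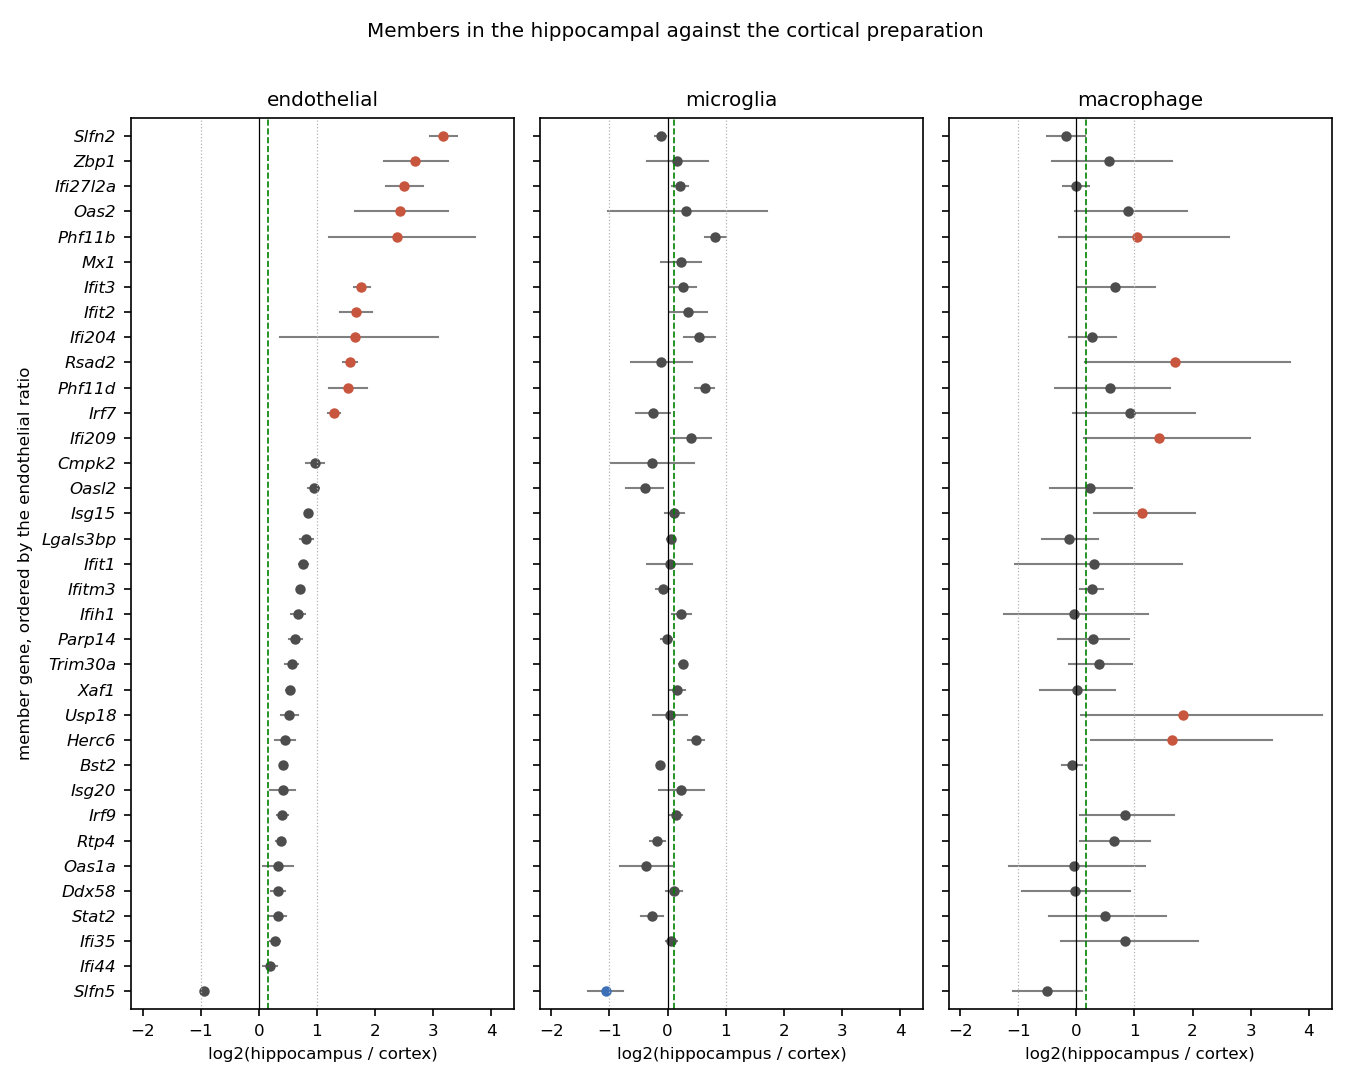
Log2 ratio of CPM, hippocampus over cortex, for each member in endothelial cells, microglia and macrophages (points, with 95% counting intervals; members with under 20 UMIs are not drawn). Red marks members called higher in the hippocampus, blue those called higher in the cortex, dark grey neither. Dotted lines mark 2-fold and the green dashed line the median of all genes. In endothelium 32 of 33 points lie above 0, in microglia they scatter about 0.11.

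Of 55 further genes of the interferon pathway, only those with at least 20 UMIs over both sides in endothelium were tested. These were 5 of 6 receptor genes, 11 of 14 upstream sensing genes and 11 of 12 that respond mainly to type II interferon. All 5 kinases and STATs, 5 other IRFs and 5 negative regulators were also tested, but none of the 8 interferon genes was. Among the genes tested, 5 were called higher in hippocampal endothelium, where 6.84% of all genes tested were, and 1 lower, where 3.14% were. Among 8 interferon genes, 5 UMIs (all of *Ifng*) were found in the 13320 cortical cells and 50 in the 14210 hippocampal cells, 43 of them of *Ifng*, 5 of *Ifnb1* and 2 of *Ifnk*, and *Ifna1*, *Ifna2*, *Ifna4*, *Ifna5* and *Ifne* were listed at 0. Of the receptor genes, 0 of 5 tested were called in endothelium and 0 of 5 in microglia. *Ifnar1* stood at 177, 169.7 and 170.0 CPM in cortical and 210.3, 206 and 218 CPM in hippocampal endothelium, and at 50.9, 52.3 and 52.8 against 58.3, 55.9 and 56.5 CPM in microglia. *Ifngr1*, the receptor chain for type II interferon, had the opposite distribution, with 957, 1039 and 1091 against 1039, 1029.7 and 1046 CPM in microglia and 103 and 123 CPM in endothelium. *Ifnar2* stood at 225 and 309 CPM in endothelium and at 182 and 257 CPM in microglia. Among the 5 kinases and STATs 0 were called. In the list of other IRF genes, *Irf8* was called higher in hippocampal endothelium (5.84 against 15.0 CPM), among the negative regulators *Ptpn6* (1.86 against 6.22 CPM), and among 11 upstream sensing genes tested none. Both called genes stood higher in microglia, at 527 and 245 CPM in the hippocampus. The part of microglial RNA in these calls was not tested. Of 11 genes tested that respond mainly to type II interferon, *Gbp4*, *Iigp1* and *Cxcl9* were called higher and *Cxcl10* lower in hippocampal endothelium, and 10 had ratios above 0, with a median of 0.80. The pathway genes named here were picked after their values were seen. *Gbp4*, a guanylate-binding GTPase, stood at 19.4, 22.8 and 21.7 against 61.4, 55.5 and 54.0 CPM, and *Cxcl9*, a chemokine, rested on 1 and 29 UMIs. In microglia 0 genes of any of these lists were called.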

How the data were processed

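Per the labels and the study's methods, the authors aligned 10x Genomics libraries to mm 10 with Cell Ranger 5.0.1 and deposited raw UMI counts per gene and barcode, with no normalization. File headers name other software versions for the 2 preparations, and the gene annotations differ, so identifiers were joined and CPM computed over the 27514 they share. Prep 2 was not analysed here. Each preparation was 1 suspension of 3 mice run as 3 technical replicates, 6 libraries in all, with 39662203 to 50024850 UMIs each.

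Cells were barcodes with at least 250 and at most 6000 genes, of whose UMIs less than 25% were mitochondrial. Cells were clustered in Seurat 5.3.0 (R 4.3.3; counts scaled to 10000, 2000 variable genes without the members, 30 dimensions, resolution 1, chosen after the clusters were seen) and named from marker lists. Doublets were scored with Scrublet in scanpy 1.11.5 and kept. Sums, ratios and intervals were computed in Python 3.11.15 with scipy 1.17.1, with exact Poisson intervals for levels, conditional binomial intervals for ratios and Clopper-Pearson intervals for shares, and were tested on simulated data. No test between groups was made. A gene was called past 2-fold with at least 20 UMIs over both sides.

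All members are accounted for. Values in every library were given for the members highest in a class and for those with the largest ratios, and pathway genes were counted by list. Library values beyond that rule, mostly in endothelium, complete a role group and were added after the values were seen. The members and lists were chosen with earlier results of these data known. Alternatives changed the clustering, doublets, mitochondrial limit, shared barcodes, weighting, UMI minimum, thinning and libraries used.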

Additional observations from a re-analysis of the deposited data

Results flagged for a closer look

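*Slfn2* changed sides between endothelial cells and microglia. Endothelial minus microglial CPM was -49.8 in the cortex (-43.4, -54.2 and -51.6 in the 3 libraries) and 13.5 in the hippocampus (14.0, 10.5 and 16.5), so every library of each preparation had the same sign and the preparations opposite ones. The difference between the preparations was not tested.

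A like pattern was seen between arterial and capillary cells for 2 members. Arterial minus capillary CPM of *Usp18* was -8.77 in the cortex (-6.37, -11.0 and -8.92) and 3.61 in the hippocampus (6.58, 3.78 and 0.612). For *Isg20* it was -5.57 in the cortex (-3.17, -6.30 and -7.24) and 13.5 in the hippocampus (12.8, 20.9 and 7.22). On the log2 scale, the counting interval of the *Usp18* ratio included 0 in the cortex (-0.82 to 0.025) and in the hippocampus (-0.24 to 0.43). That of *Isg20* included 0 in the cortex (-1.29 to 0.066) but not in the hippocampus (0.26 to 1.15). Neither difference was tested.

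Barcodes with under 250 genes, which no comparison used, held *Isg20* at 224 CPM in the cortex (260.2, 227 and 198) and at 124 CPM in the hippocampus (128, 151 and 86.6), above its level in every named class. Erythroid markers made up 92.6% of the UMIs of the 3862 cortical barcodes of this kind. Groups of 3 libraries were too small to look for single outlying libraries.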

How the results depend on the processing

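The alternatives gave 199 values within the limits set for an unchanged result and 29 that moved, and none of these reversed in direction. Outside these values, the *Ifit1* levels of cortical and hippocampal VSMCs changed order without called doublets. In endothelial cells the number of members past 2-fold stayed within 1.5 times the 11 higher in the hippocampus and the 0 higher in the cortex under every alternative. In microglia 1 member was called higher in the hippocampus, in place of 0, with each cell classed by its own markers, and the number higher in the cortex ranged from 0 to 1 when single libraries were left out, with 0 without cortex replicate 3. In astrocytes the 3 members higher in the hippocampus became 1 without cells of 10% or more mitochondrial UMIs, 6 without cells whose markers point to another class, and 1 with at least 100 UMIs. The 2 higher in the cortex became 0 without called doublets and 1 under each of the own-marker, other-class, equal-weight and 100-UMI settings. The 19 members highest in a cortical myeloid class ranged from 12 to 17 with single libraries left out, lowest without cortex replicate 1. With any cortical library left out, monocytes fell under the 50 cells needed to rank a class. The share of cells with 3 or more core members was 20.7% and 39.3% (cortical and hippocampal endothelium) and 1.35% and 0.999% (microglia) at 2000 UMIs, 64.3%, 72.0%, 3.93% and 4.43% without thinning, and 0.533%, 3.22%, 0.148% and 0.172% for 5 or more. Without *Ifitm3*, *Bst2* and *Ifi27l2a* the summed levels were 1861 and 2653 CPM in endothelium and 591 and 642 CPM in microglia by construction. The hippocampal endothelial sum was 4868 CPM without called doublets and 4635 CPM with cells weighted equally. The cause of the other shifts was not tested. Resolution 0.5 was added after the clusters were seen. No paired analysis was possible because no result comes from a test, and a replicate number only names a technical run of 1 suspension. Depth limits the small classes most, where members rested on few UMIs.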

Other observations

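Interferon transcripts were found in single cells. The 5 UMIs of *Ifnb1*, a type I interferon, lay in 3 hippocampal microglia that held 13 to 17 of the 18 core members without thinning, where the median of their clusters was 0. Of the 43 hippocampal UMIs of *Ifng*, the type II interferon made by T and NK cells, 41 lay in 12 cells of an unnamed cluster of 76 cells that expressed *Cd3g*, *Nkg7* and *Ccl5* beside *H2-Aa* and *Cd74*. That cluster tied between monocyte markers and T and NK cell markers, with *Plac8* and *S100a4* among its leading genes. It held the members at a summed 4025 CPM, from a median of 8606 UMIs per cell. Within that sum *Ifitm3* stood at 1046 CPM, *Ifi27l2a* at 904 CPM and *Slfn2* at 372 CPM.

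Barcodes with under 250 genes in the cortex also held *Isg15* at 112 CPM (109, 116 and 110.2 in the 3 libraries) and *Irf7* at 13.8 CPM (15.5, 11.9 and 14.2).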
